A study of Danio rerio with 416 samples.

Results

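The subject is the full-length single-cell libraries of maternal-zygotic one-eyed pinhead (MZoep) zebrafish embryos, compared among the 4 library preparation batches p1, p2, p3 and p4 in which they were made. Members were the MZoep columns of the FPKM table in which 1500 genes or more reached FPKM 1. FPKM counts sequenced fragments relative to transcript length and to all fragments mapped for that cell. Of 276 MZoep cells labelled as full-length, 245 were members, out of 416 cells of both genotypes and both library types in the series. They were 79 of 93 labelled cells in p1, 80 of 82 in p2, 61 of 74 in p3 and 25 of 27 in p4, and the 31 cells left out had at most 1348 genes.

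All 4 batches carried the same genotype, MZoep tz57, and the same stage, 50% epiboly, so allele and stage label do not differ between them. Wild-type TLAB cells of batches p2, p3 and p4 (14, 18 and 12 kept cells) are used below only to show whether a batch ratio was also seen in the other genotype. Cells had been picked by hand from embryos whose yolk was removed, so their numbers are not those of an intact embryo. Per the labels all libraries were sequenced together, and no label ties a cell to an embryo, a clutch or a culture. Each batch is therefore 1 sample, cells are not replicates, and no difference below has a test or a replicate check. Clutch, exact age, dissociation and library preparation cannot be told apart between batches.

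The one-eyed pinhead gene, now called tdgf1, encodes the membrane co-receptor that Nodal ligands need in order to signal, and without it embryos form little endoderm and head and trunk mesoderm. At 50% epiboly the embryo is still clearing messenger RNAs laid down in the egg while transcripts from its own genome, first made at the midblastula transition, take over. The margin of the blastoderm expresses genes of mesoderm and endoderm, and a thin outer epithelium, the enveloping layer, covers all other cells and expresses keratins and tight-junction genes. Maternal, early zygotic, margin and epithelial genes therefore read age, position and cell make-up in different ways.

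The batches differed in depth and in the number of genes at FPKM 1 before any gene was considered. The median cell had 7011, 7528, 7511 and 6793 genes at FPKM 1 or more in p1 to p4. Relative depth, read from the size of the smallest non-zero values, had a median of 1.23, 0.745, 1.23 and 1.23 times the median cell, so p2 was the shallowest. These medians leave out 9, 2, 1 and 6 kept cells of p1 to p4 for which no depth was set. Depth was read in fixed steps, so equal medians are equal only to within a step. Batch p2 also had the most genes at FPKM 1. In a shallower cell the smallest non-zero values are larger, and the part of this in the gene numbers was not tested. Gene numbers and shares of cells at FPKM 1 given here were not corrected for this. The 10 features with the highest mean took 59.1%, 52.9%, 57.4% and 59.3% of the summed FPKM, and the 13 mitochondrially encoded genes took 0.717%, 1.02%, 0.707% and 0.684%. The transcript of the mutated gene gave no check of the genotype: tdgf1 averaged 35.9, 55.1, 50.7 and 52 FPKM in p1 to p4, near the 37.9, 49.5 and 47.2 FPKM of wild-type p2 to p4. The beta-actin gene actb1 averaged 317, 381, 581 and 267 FPKM in p1 to p4. No pair of kept columns was identical.

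Each batch was set against the mean of the other 3, as log2 of the batch mean plus 1 FPKM over the mean of the other batch means plus 1 FPKM. A gene was compared if some batch had it at FPKM 1 in 20% of cells or more and some batch averaged 5 FPKM or more. Of the 7588 such genes, 61, 159, 57 and 73 were at least 2-fold higher in p1, p2, p3 and p4. Another 170, 32, 78 and 395 were at least 2-fold lower. As shares these were 0.804%, 2.1%, 0.751% and 0.962% higher and 2.24%, 0.422%, 1.03% and 5.21% lower. Batch p2 thus leaned upwards and p4 downwards. Batch p4 rests on 25 cells, and the part of that number in its counts is not given here. Counts after shuffling each gene's values over the cells were made only as a check of the calculations and are not given here. The median log2 ratio of these genes was -0.13, 0.20, -0.02 and -0.14, and the lists below are read against such shifts. After subtracting that median, p2 had 69 genes higher and 82 lower, p4 had 122 higher and 240 lower, and p1 had 103 lower, so the upward lean of p2 depends on the scaling. In pairs, p3 and p2 were closest with 276 genes at least 2-fold apart (3.64%), and p4 and p2 were furthest apart with 766 (10.1%).

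A gene was called measured if 5% of the cells of any batch reached FPKM 1. Of 17030 measured genes, 21.8% were at least 2-fold apart between their highest and lowest batch. Among the lists the share was 19 of 28 epithelial genes (67.9%), 10 of 23 maternal genes (43.5%), 14 of 33 margin genes (42.4%) and 5 of 30 early zygotic genes (16.7%). Of these 4 lists epithelial genes were apart most often, while early zygotic genes lay below the share of all genes. Immediate early and heat shock genes were apart more often still, in 11 of 15 (73.3%). None of 18 S phase genes and none of 79 ribosomal protein genes was 2-fold apart, and 1 of 20 genes of G2 and M phase was. The lists share members: aplnrb and tbx16 are in both the early zygotic and the margin list.

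**Figure D1:**
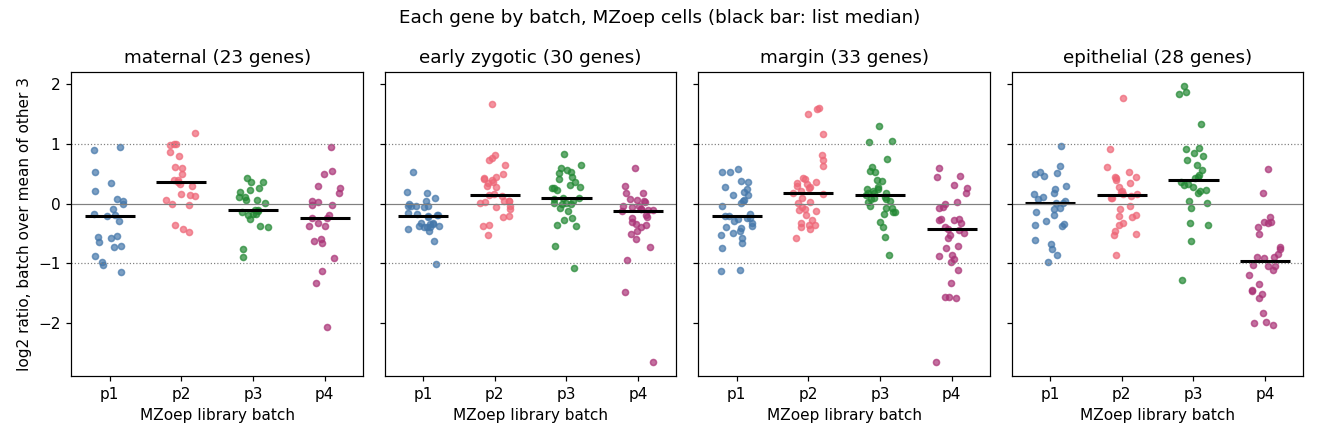
Each point is 1 gene, plotted as the log2 ratio of its mean FPKM (plus 1) in an MZoep batch over the mean of the other 3 batches, in 4 gene lists with black bars at the list median and dotted lines at 2-fold. The epithelial list in p4 has its median at -0.97 with 14 of 28 genes beyond 2-fold lower, while the early zygotic genes stay near 0 in every batch apart from a few.

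By list median, maternal transcripts were highest in p2. Their summed level in the median cell was highest in p4, at 1131 FPKM, against 1122 FPKM in p2. Their median log2 ratio was -0.20, 0.36, -0.10 and -0.24 in p1 to p4, against -0.10, 0.15, -0.02 and -0.16 over all measured genes. Of the 23 genes 15 had their highest batch mean in p2, and the share of all genes highest there was not counted. At least 2-fold higher in p2 were 2 of 23, against 1.93% of all measured genes. At least 2-fold lower were 2 of 23 in p1, against 1.8%, and 3 of 23 in p4, against 4.86%. In p1 and p4, 0 of 23 were at least 2-fold higher, against 0.822% and 1.54% of all measured genes, and no maternal gene passed 2-fold in p3. The list therefore moved by less than 2-fold as a whole, and its wide spread came from single genes.

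Some maternal genes were high in p2 and p3 and low in p1 and p4. The mean of btg4, which in mouse recruits the deadenylase that clears maternal mRNA, was 22.2 FPKM in p2, against 6.84, 15.7 and 5.28 FPKM in p1, p3 and p4 (log2 ratio 1.18). It reached FPKM 1 in 75% of p2 cells (95% exact interval 64.1 to 84) and 70.5% of p3 cells (57.4 to 81.5), and in 39.2% of p1 cells (28.4 to 50.9) and 36% of p4 cells (18 to 57.5). These intervals, like all below, cover counting error over cells only. They do not allow for genes being named for their gap between these same batches or after values were seen. Whether intervals overlap is therefore a description and not a test. The intervals of p2 and p3 do not overlap those of p1, and p2 does not overlap p4.

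The same order was seen for slbp2, an oocyte histone-mRNA binding protein in frog. It averaged 19.5 FPKM in p2, against 6.87, 14.4 and 6.72 FPKM in p1, p3 and p4 (log2 ratio 0.99), and was detected in 75% of p2 cells, against 35.4%, 70.5% and 44%. The mean of sybu, whose product carries dorsal determinants along microtubules in the early zebrafish embryo, was 3.89 FPKM in p2, against 1.07, 2.68 and 0.614 FPKM (log2 ratio 0.99). All 3 genes were higher in p2 and p3 than in p1 and p4.

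The highest maternal transcript, gdf3, the TGF-beta ligand that pairs with Nodal, was highest in p4 and lowest in p1. It averaged 420 FPKM in p4, against 149.6, 267 and 232 FPKM in p1, p2 and p3 (log2 ratio 0.95 for p4), and the median cell held 396, against 103.5, 249 and 223 FPKM. Its ratio in p1 was -1.03. The oocyte kinase gene mos had 0.787 FPKM in p4, against 8.33, 5.51 and 5.72 FPKM (log2 ratio -2.07), and was detected in 16% of p4 cells, against 31.6%, 40% and 32.8%. The polyadenylation factor cpeb1b was highest in p1, at 14.1 FPKM, against 6.44, 8.09 and 5.95 FPKM in p2, p3 and p4 (log2 ratio 0.95). The oocyte growth factor bmp15 was lowest there, at 2.66 FPKM, against 9.5, 4.61 and 7.08 FPKM (log2 ratio -1.14). So the order of the batches differed from gene to gene, and 7 of 23 maternal genes lay above 0 in p1.

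The carbonic anhydrase gene ca15b, also a germ plasm transcript, reached 23.3 FPKM in p2, against 12.7, 8.99 and 11.8 FPKM (log2 ratio 1.0). Of its p2 total 27.7% lay in 1 cell, and the ratio was 0.81 without the highest cell of each batch. At the other end, ccna1, the maternal cyclin A, averaged 154, 160, 146 and 158 FPKM in p1 to p4. The deadenylase subunit gene cnot6a had 41.6, 50.5, 46.3 and 46.9 FPKM, and the maternal linker histone h1m 176, 171, 148 and 139 FPKM. The gap between highest and lowest batch was 0.34 on the log2 scale for h1m, 0.27 for cnot6a and 0.13 for ccna1. These maternal mRNAs were nearly level, and were named for their small gaps.

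**Figure D2:**
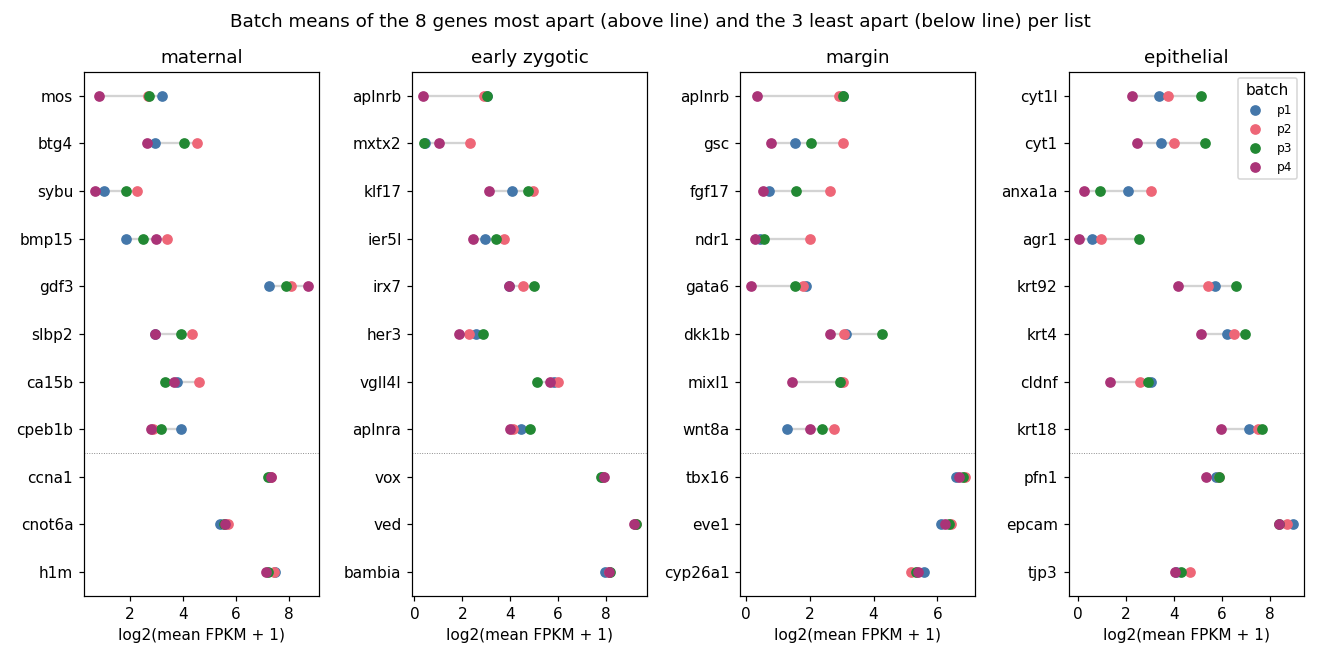
Mean level per batch, as log2 of mean FPKM plus 1, for the 8 genes of each list with the largest gap between batches (above the dotted line) and the 3 with the smallest among genes of at least 10 FPKM, coloured by batch. The p4 points lie at the left end of nearly every epithelial gene, whereas gdf3, among the 8 maternal genes most apart, has p4 at the right end.

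Genes of the early zygotic list, mostly of transcription factors and signalling, were the least apart of the 4 lists. The list also holds pou5f3, nanog and sox19b, so it is not limited to genes first made by the embryo. The list medians were -0.20, 0.15, 0.09 and -0.12 in p1 to p4, or -0.11, 0.00, 0.12 and 0.04 after taking off the median of all measured genes. At least 2-fold higher was 1 of 30, in p2, against 1.93% of all measured genes. At least 2-fold lower were 1 of 30 in p1, 1 of 30 in p3 and 2 of 30 in p4. Over all measured genes the shares lower in p1, p3 and p4 were 1.8%, 0.898% and 4.86%. The abundant members were nearly level. The ventral repressor vox averaged 224, 233, 220 and 239 FPKM in p1 to p4, the ventral repressor ved 583, 609, 615 and 567 FPKM, and bambia, an inhibitor of BMP signalling, 248, 274, 284 and 278 FPKM.

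The 8 early zygotic genes furthest apart had lower means than vox, ved and bambia. The Krüppel-like factor gene klf17, needed for the hatching gland, averaged 7.76 FPKM in p4, against 15.6, 29.5 and 25.4 FPKM in p1, p2 and p3 (log2 ratio -1.49). It reached FPKM 1 in 68% of p4 cells, against 63.3%, 86.3% and 85.2%. The Iroquois homeobox gene irx7 reached 30.9 FPKM in p3, against 14.3, 22 and 14.5 FPKM (log2 ratio 0.83), and the immediate early gene ier5l was 4.48 FPKM in p4, against 6.75, 12.4 and 9.61 FPKM (log2 ratio -0.95). These 3 had higher means in p2 and p3 than in p1 and p4, as did btg4 and slbp2.

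The homeobox gene mxtx2, which acts in the yolk syncytial layer, was high in p2 alone. Its mean was 3.98 FPKM there, against 0.376, 0.314 and 1.01 FPKM in p1, p3 and p4 (log2 ratio 1.67), and it was detected in 27.5% of p2 cells, against 7.59%, 4.92% and 12%. Of 13 listed yolk syncytial layer genes, mxtx2 included, 6 were measured and 3 were at least 2-fold higher in p2, against 1.93% of all measured genes. Their medians were -0.32, 0.72, -0.40 and -0.55, and 0.047 in p2 with all listed genes. The part of yolk-layer RNA in this result was not tested. The vestigial-like cofactor gene vgll4l was lower in p3, at 33.6 FPKM, against 55.4, 62.9 and 48.9 FPKM (log2 ratio -0.71). The apelin receptor gene aplnra reached 27.6 FPKM in p3, against 20.9, 16.1 and 14.9 FPKM (log2 ratio 0.64). The Hairy-related gene her3 averaged 2.67 FPKM in p4, against 5.02, 3.89 and 6.34 FPKM (log2 ratio -0.73), and 0.06 from means of log2 values.

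Margin genes were lower in p4 than in the other batches. Their median log2 ratio was -0.21, 0.18, 0.14 and -0.42 in p1 to p4, against -0.10, 0.15, -0.02 and -0.16 over all measured genes. Of 33 measured margin genes 19 had their lowest batch mean in p4, and the share of all genes lowest there was not counted. At least 2-fold lower in p4 were 6 of 33 (18.2%), against 4.86% of all measured genes. At least 2-fold higher were 4 of 33 in p2 (12.1%) and 3 of 33 in p3 (9.09%), against 1.93% and 0.781%. At least 2-fold lower in p1 were 2 of 33, against 1.8%. Of the 43 listed genes 10 were not measured in MZoep cells, and most of the others were detected in a minority of cells. A pseudocount of 10 FPKM brings the p4 median to -0.08 and one of 0.1 FPKM to -0.81.

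Among the 8 margin genes furthest apart, some were high in p2 and others low in p4. The organizer homeobox gene gsc averaged 7.19 FPKM in p2, against 1.94, 3.08 and 0.711 FPKM in p1, p3 and p4 (log2 ratio 1.49). It was detected in 38.8% of p2 cells (28.1 to 50.3), against 12.7% in p1 (6.24 to 22), 24.6% in p3 (14.5 to 37.3) and 8.0% in p4 (0.984 to 26). The BMP antagonist gene chrd, chosen after its values were seen, had 16.7 FPKM in p2, against 9.40, 5.44 and 5.87 FPKM (log2 ratio 1.16). The detection interval of gsc in p2 lies above those of p1 and p4 and overlaps that of p3.

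Signalling genes of the margin did not share 1 order, though fgf17, ndr1 and wnt8a had their highest mean in p2. The growth factor gene fgf17 had 5.16 FPKM in p2, against 0.642, 2.0 and 0.438 FPKM (log2 ratio 1.60). The Nodal ligand gene ndr1 had 3.06 FPKM in p2, against 0.35, 0.492 and 0.212 FPKM (log2 ratio 1.59). In p2 1 cell held 73.1% of its total, and the ratio was 0.67 without the highest cell of each batch. The Wnt ligand gene wnt8a averaged 1.46 FPKM in p1, against 5.86, 4.26 and 2.99 FPKM in p2, p3 and p4 (log2 ratio -1.13), and was detected in 16.5% of p1 cells, against 42.5%, 31.1% and 36%. The Wnt inhibitor gene dkk1b was highest in p3, at 18.1 FPKM, against 7.72, 7.48 and 5.17 FPKM (log2 ratio 1.30).

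A second group was level in p1, p2 and p3 and low in p4. The apelin receptor gene aplnrb averaged 0.276 FPKM in p4, against 7.27, 6.58 and 7.27 FPKM in p1, p2 and p3 (log2 ratio -2.65), and its highest p4 cell held 2.58 FPKM, against 262, 146 and 127.5 FPKM. The endoderm and heart factor gata6 averaged 0.12 FPKM in p4, against 2.73, 2.43 and 1.92 FPKM (log2 ratio -1.58), and 1 of 25 p4 cells reached FPKM 1 (4.0%, 0.101 to 20.4), against 30.4%, 38.8% and 27.9%. The mesendoderm homeobox gene mixl1 averaged 1.70 FPKM in p4, against 6.96, 7.28 and 6.69 FPKM (log2 ratio -1.56), detected in 20% of cells, against 35.4%, 28.7% and 37.7%. The 3 genes were all lowest in p4, and of them gata6 had a p4 interval that lay below the shares of the other 3 batches. The intervals of those shares were not set against it.

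The 3 margin genes with the smallest gap, among means of at least 10 FPKM, were level through that choice. The T-box gene tbx16 averaged 94.2, 115, 111 and 102 FPKM in p1 to p4, the ventral homeobox gene eve1 67.8, 84.6, 81.7 and 74.4 FPKM, and cyp26a1, which breaks down retinoic acid, 46.7, 34.8, 38.9 and 41.1 FPKM. Their gaps between highest and lowest batch were 0.28, 0.32 and 0.42 on the log2 scale. Markers of endoderm, which forms at the margin, are given beside them: sox32, the endoderm factor, averaged 0.106 FPKM in p4, against 1.80, 4.80 and 1.07 FPKM in p1, p2 and p3, and was detected in 0 of 25 p4 cells, which allows a share of up to 12% (3 counts of 25), against 15.2%, 41.3% and 14.8%. Of 7 endoderm genes 5 were measured, and their p4 median of -1.56 is the ratio of mixl1 itself, which like gata6 is also in the margin list. That median was -0.39 with all listed genes, -0.29 with a pseudocount of 10 FPKM and -0.68 from means of log2 values. The part of endoderm-like cells in the margin result was not tested.

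Of the 4 main lists the epithelial one showed the widest batch spread, with low means in p4 and high keratins in p3. The list median was 0.01, 0.14, 0.40 and -0.97 in p1 to p4. At least 2-fold lower in p4 were 14 of 28 measured genes (50%), against 4.86% of all measured genes. In addition 24 had their lowest batch mean in p4, for which the share of all genes was not counted, and 2 lay above 0 there. At least 2-fold higher were 4 of 28 in p3 (14.3%) and 1 in p2, against 0.781% and 1.93% of all measured genes. With the mean of log2 values per cell as the batch value, 4 genes instead of 14 passed 2-fold in p4, and the medians were -0.31, 0.20, 0.43 and -0.40.

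Keratin genes were highest in p3 and lowest in p4. The mean of krt4 was 34 FPKM in p4, against 72, 88.9 and 123 FPKM in p1, p2 and p3 (log2 ratio -1.45), whereas its median cell held 31.4 FPKM in p4, against 28.7, 51.6 and 64.9 FPKM. The highest krt4 cell held 107 FPKM in p4, against 2382, 809 and 2990 FPKM. The mean of krt18 was 61.8 FPKM in p4, against 139, 180 and 198 FPKM (log2 ratio -1.47), and krt92 had 17 FPKM, against 51.9, 42.2 and 95.2 FPKM (log2 ratio -1.83). For krt4 the median cells of p4 and p1 were close while their means and highest cells were far apart.

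The type I keratin genes cyt1 and cyt1l, a close pair whose reads the counting could have split, were the epithelial genes furthest apart. The mean of cyt1 was 37.9 FPKM in p3, against 10.1, 15 and 4.50 FPKM in p1, p2 and p4 (log2 ratio 1.84), and 0.95 without the highest cell of each batch, since 1 cell held 56.6% of the p3 total. It was detected in 85.2% of p3 cells (73.8 to 93), against 44.3% in p1 (33.1 to 55.9), 66.3% in p2 (54.8 to 76.4) and 32% in p4 (14.9 to 53.5). The mean of cyt1l was 33.8 FPKM in p3, against 9.44, 12.4 and 3.78 FPKM (log2 ratio 1.87), with detection in 80.3%, against 36.7%, 52.5% and 32%. So p3 cells held these transcripts more often, and the interval of p3 for cyt1 lies above those of p1 and p4.

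Other epithelial members had their own order. The annexin gene anxa1a averaged 7.28 FPKM in p2, against 3.24, 0.884 and 0.214 FPKM in p1, p3 and p4 (log2 ratio 1.76). The claudin gene cldnf, a tight-junction component, was 1.57 FPKM in p4, against 7.38, 5.04 and 6.66 FPKM (log2 ratio -1.52). The secreted-protein gene agr1 had 4.93 FPKM in p3, against 0.517, 0.961 and 0.05 FPKM (log2 ratio 1.97), with 66.7% of the p3 total in 1 cell. Named for the smallest gap among means of at least 10 FPKM were pfn1, tjp3 and epcam. The actin-binding profilin pfn1 had 52, 57.1, 58.2 and 38.9 FPKM in p1 to p4. The tight-junction adaptor tjp3 had 15.8, 24.5, 18.7 and 15.6 FPKM. The adhesion gene epcam had 489, 408, 327 and 330 FPKM, highest in p1.

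Summed levels per cell separate a few very high cells from the bulk. Over 9 keratin-type genes the median cell held 180.0, 296, 400.2 and 157 FPKM in p1 to p4, and the highest cell 10147, 7476, 15695 and 524 FPKM. At least 1000 FPKM was reached by 5, 4, 3 and 0 cells, 12 in all, and 0 of 25 in p4 allows a share of up to 12% (3 counts of 25). That limit lies above the 6.33%, 5% and 4.92% of p1, p2 and p3, so a lack of such cells in p4 was not detectable at this number of cells. Without these 12 cells the epithelial medians were -0.40, 0.31, 0.11 and -0.41, and 5 instead of 14 genes were at least 2-fold lower in p4. At the lower level of 500 FPKM there were 24 of 80 cells in p2 (30%, 20.3 to 41.3) and 22 of 61 in p3 (36.1%, 24.2 to 49.4), and 6 of 79 in p1 (7.59%, 2.84 to 15.8) and 1 of 25 in p4 (4%, 0.101 to 20.4). A raised keratin level was thus common in p2 and p3 and rare in p1, where the intervals do not overlap.

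**Figure D3:**
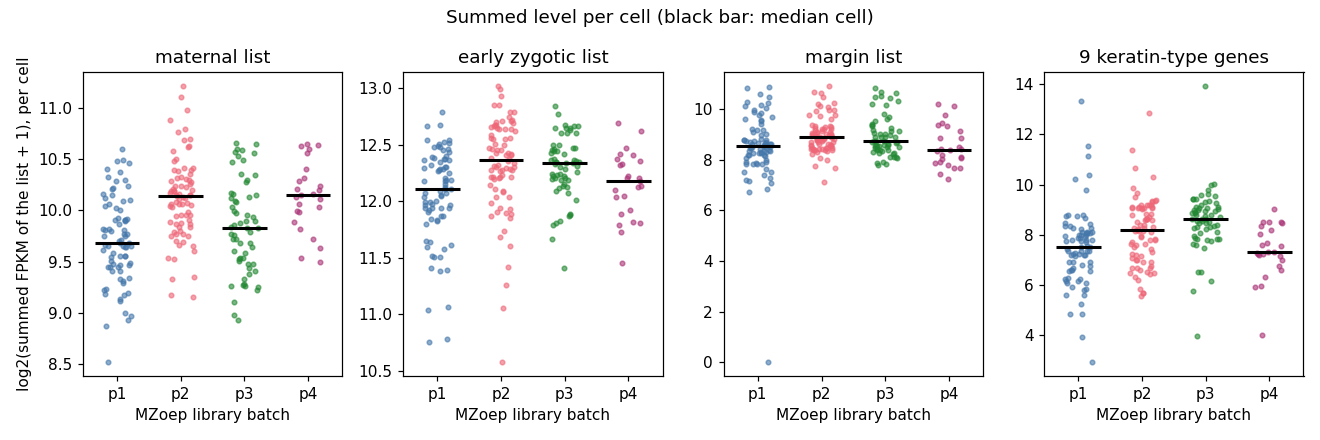
Each point is 1 MZoep cell, plotted as log2 of the summed FPKM plus 1 of a list, with black bars at the median cell of each batch; axes do not start at 0 and differ between panels. The maternal sum is lowest in p1, and in the keratin panel a few cells of p1, p2 and p3 stand far above the rest while p4 ends at 524 FPKM.

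The other sums were closer. The maternal sum, in which gdf3 has a large share, had medians of 821, 1122, 908 and 1131 FPKM in p1 to p4, and the early zygotic sum 4402, 5269, 5160 and 4631 FPKM. The margin sum had medians of 374, 474, 424 and 336 FPKM, and 1 p1 cell was listed at 0 for every margin gene and held 7822 FPKM of epithelial genes. The cells of the 4 batches overlapped widely in all 3 sums. The number of maternal members detected in the median cell was 15, 16, 16 and 14 of 23, and of margin members 10, 12, 12 and 9 of 33.

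Genes whose expression starts around the onset of gastrulation had their lowest list median in p1. That median was -0.41, 0.13, 0.02 and -0.10 in p1 to p4, over 18 of 25 genes that were measured. The members were mixed: 11 of 18 lay below 0 in p1 and 7 above. Their lowest batch mean was in p1 for 7 and in p4 for 6, and 5, cyp26a1 among them, had their highest in p1. The neural factor gene sox2 averaged 8.87 FPKM in p1, against 20, 16.8 and 14.6 FPKM in p2, p3 and p4 (log2 ratio -0.88), and was detected in 48.1% of p1 cells (36.7 to 59.6), against 75% (64.1 to 84), 82% (70 to 90.6) and 84% (63.9 to 95.5). The midbrain-boundary gene her5 had 12.7 FPKM in p1, against 22.5, 22.4 and 17.8 FPKM (log2 ratio -0.67). The sox2 intervals of the other 3 batches lie above that of p1. Both genes were chosen after their values were seen. With the mean of log2 values the list median in p1 was -0.12.

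Across all genes tested, the 5 highest and 5 lowest ratios of each batch belonged to genes outside the 4 lists, apart from cyt1 and cyt1l in p3. In p2 the prolyl hydroxylase gene egln3, a target of the hypoxia-inducible factor, averaged 30.2 FPKM, against 0.969, 1.74 and 1.08 FPKM in p1, p3 and p4 (log2 ratio 3.78). It reached FPKM 1 in 38.8% of p2 cells (28.1 to 50.3), against 7.59%, 19.7% and 16%, and reached 317 FPKM, against 32.6, 24.1 and 17.6 FPKM. The stress gene ddit4 averaged 104 FPKM in p2, against 20.1, 37.4 and 17.9 FPKM (log2 ratio 2.0), and ankrd37, another hypoxia-inducible gene, 16.3 FPKM, against 1.07, 6.10 and 2.96 FPKM (log2 ratio 1.98). The 3 genes were high in part of the p2 cells, not in all.

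The left-sided Nodal ligand gene spaw reached FPKM 1 mostly in p2. It averaged 6.69 FPKM there, against 0.0891, 0.0864 and 0.13 FPKM in p1, p3 and p4 (log2 ratio 2.80). It reached FPKM 1 in 55% of p2 cells (43.5 to 66.2), against 3.80%, 1.64% and 4.0%. The part of depth in these shares was not tested. The lowest non-zero value in p2, the shallowest batch, was 1.14 FPKM, above the cut. Cells of p1, p3 and p4 also held spaw below the cut, down to 0.28, 0.59 and 0.59 FPKM, and are not in these shares. The germ cell genes nanos3 and dnd1 were also among the highest in p2, at 84.7 FPKM, against 1.26, 9.45 and 6.57 FPKM, and at 25.3 FPKM, against 2.36, 3.14 and 1.60 FPKM. For dnd1 1 cell held 48.2% of the p2 total. For nanos3 2 cells, at 3201 and 2925 FPKM, held 90.5%, and the other 78 p2 cells averaged 8.29 FPKM, so its high p2 mean rests on 2 cells. It was detected in more p3 cells (62.3%) than p2 cells (52.5%).

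In p3 the chaperone genes hsp90aa1.2 and hsp70.3 led. The mean of hsp90aa1.2 was 55.7 FPKM in p3, against 1.04, 7.69 and 0.681 FPKM in p1, p2 and p4 (log2 ratio 3.78), with detection in 50.8% of cells (37.7 to 63.9), against 11.4%, 38.8% and 12%. Of 61 p3 cells 26 were at 0, 21 lay between 0 and the mean and 14 at or above it, so part of the cells carried the high mean. The mean of hsp70.3, which has near-identical copies, was 18.9 FPKM in p3, against 0.367, 3.25 and 0.0172 FPKM (log2 ratio 3.17). The uncharacterised gene si:ch1073-190k2.1 was lowest in p3, at 7.80 FPKM, against 64.5, 42.3 and 34.6 FPKM (log2 ratio -2.45), also in the median cell (6.61 FPKM, against 55.7, 22.5 and 23.8 FPKM). The cell adhesion gene cd44a had 8.65 FPKM in p3, against 2.18, 1.90 and 0.0248 FPKM, and 58.6% of the p3 total in 1 cell.

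In p1 the carboxypeptidase gene cpn1 and the serine protease gene tmprss15 were detected in most cells. The mean of cpn1 was 8.50 FPKM in p1, against 0.424, 0.599 and 0.342 FPKM in p2, p3 and p4 (log2 ratio 2.71), with detection in 62% of cells (50.4 to 72.7), against 15%, 31.1% and 16%. At FPKM 5 or more the shares were 40.5%, against 1.25%, 0% and 0%. The mean of tmprss15 was 0.296 FPKM in p2, against 6.20, 2.15 and 1.18 FPKM in p1, p3 and p4 (log2 ratio -1.69), with detection in 57% of p1 cells and 5.0% of p2 cells. The uncharacterised gene si:ch211-242h13.4 had 56.4 FPKM in p1, against 18, 13.2 and 17.5 FPKM (log2 ratio 1.73), in 89.9% of cells.

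In p4 the lists of extremes differed in kind by direction. The 5 genes highest against the other batches each had between 44% and 92% of their p4 total in 1 cell. Without the highest cell of each batch, nat8l and si:dkey-78o7.3 had ratios of -0.05 and -0.47, so these 2 rest on single cells. The lowest included the glutathione transferase gene gsta.1, at 0.104 FPKM in p4, against 11.4, 9.16 and 10.9 FPKM (log2 ratio -3.38), and the sorbitol dehydrogenase gene sord, at 0.232 FPKM, against 6.66, 7.77 and 7.19 FPKM (log2 ratio -2.74). Of 25 p4 cells 1 reached FPKM 1 for gsta.1 (4.0%, 0.101 to 20.4), against 36.7% (26.1 to 48.3), 46.3% (35 to 57.8) and 47.5% (34.6 to 60.7). The immediate early gene ier2a had 0.35 FPKM in p4, against 8.53, 12.7 and 6.15 FPKM (log2 ratio -2.91).

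**Figure D4:**
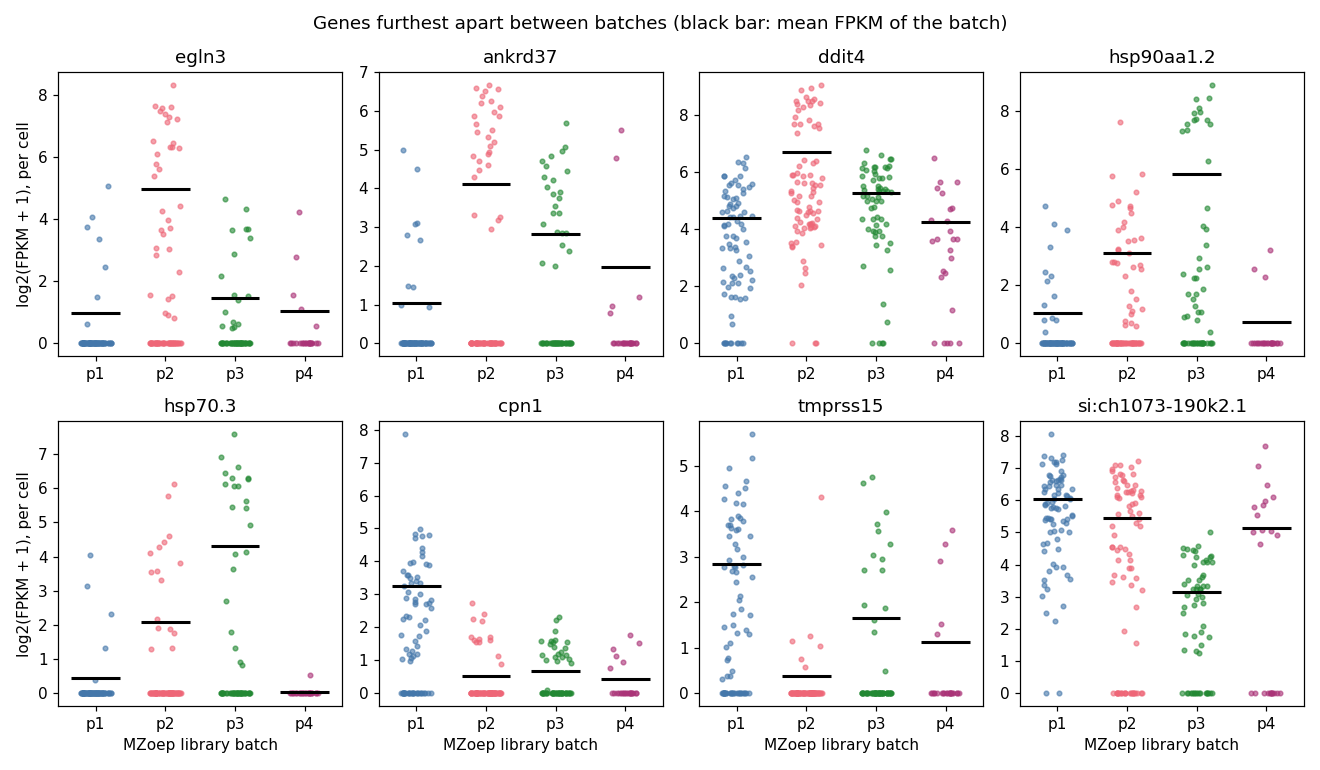
Each point is 1 MZoep cell, plotted as log2 of FPKM plus 1 for 8 genes that differ most between batches or were chosen after values were seen, with black bars at the batch mean. Of 80 p2 cells 46 are at 0 for egln3, 16 lie between 0 and the mean and 18 at or above it, and si:ch1073-190k2.1 in p3 has a low median and a low upper end (highest cell 31.2 FPKM) with 17 of 61 cells at 0.

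Wild-type cells with the same batch names did not show the MZoep order for most lists. Among p2, p3 and p4 alone, each batch was set against the mean of the other 2. The epithelial median was then 0.20, 0.43 and -1.0 in MZoep and -0.03, -0.02 and 0.00 in wild type. MZoep cells with keratins of at least 1000 FPKM, 4 in p2 and 3 in p3, were kept here. Over all MZoep batches the epithelial median of p4 was -0.97, and -0.40 from means of log2 values. The maternal median was 0.30, -0.07 and -0.25 in MZoep and -0.35, -0.41 and 0.59 in wild type. The batch with the highest maternal median was thus p2 in MZoep and p4 in wild type. The margin median was 0.13, 0.06 and -0.48 in MZoep and -0.30, -0.08 and -0.04 in wild type. Some other p4 medians were below 0 in both genotypes. In MZoep and wild type they were -1.50 and -0.95 for endoderm and -0.51 and -0.45 for apoptotic and p53 genes. For immediate early and heat shock genes they were -0.78 and -0.38. Maternal, germ cell and hypoxia-inducible medians, among others, were below 0 in MZoep p4 and above 0 in wild-type p4. Of the 503 genes (6.63%) at least 2-fold lower in MZoep p4 in this comparison, 46.7% had a lower mean in wild-type p4 as well, against 47.4% of all genes tested. For the 200 genes (2.64%) at least 2-fold higher in MZoep p2 the shares were 58.5% and 50.9%. Past 2-fold in wild type too, in the same direction, were 14.9% of the MZoep p4 genes, against 8.47% of all genes tested, and 19.5% of the MZoep p2 genes, against 10%. In the other 4 sets of batch and direction the share past 2-fold in wild type was also above that of all genes tested, at 12% against 5.39% for p3 higher and 23.4% against 16.4% for p3 lower. Of these 4, the share with the same sign was above that of all genes tested only for p2 lower, at 59.1% against 49.1%. It was 37.3% against 37.4% for p3 higher, 58.6% against 62.6% for p3 lower and 36.1% against 52.6% for p4 higher. Shares past 2-fold in the opposite direction were not counted, so a batch difference common to both genotypes cannot be read from these values. Wild-type means rest on 12 to 18 cells each, and whether a batch name stands for shared processing in both genotypes is not stated. As in MZoep, p2 was the shallowest of them, with median relative depths of 0.555, 1.23 and 1.17 in wild-type p2, p3 and p4. The part of depth in these ratios was not tested.

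**Figure D5:**
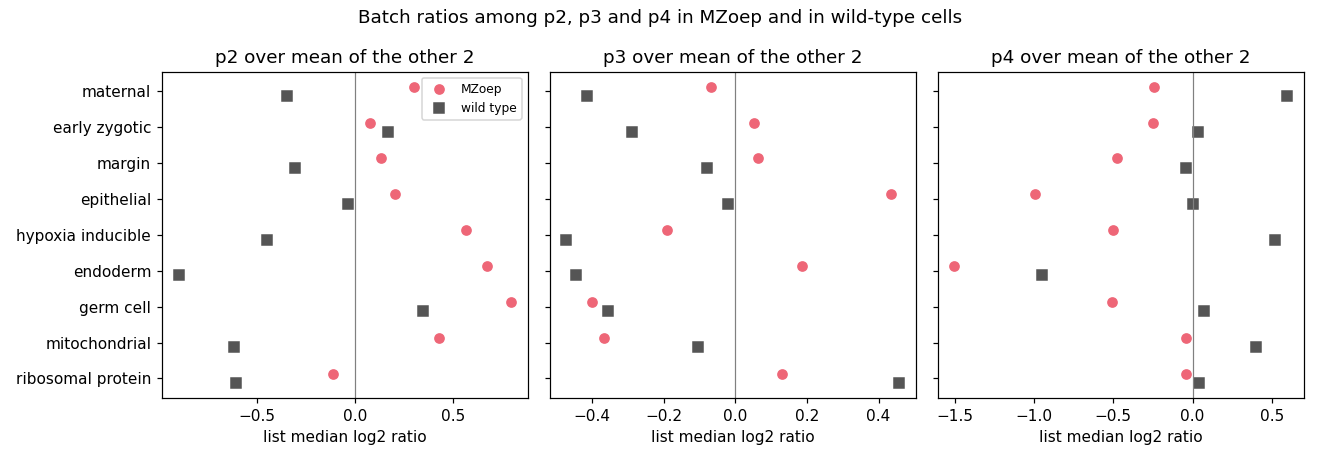
List median of the log2 ratio of 1 batch over the mean of the other 2 among p2, p3 and p4, in MZoep cells (circles) and wild-type cells (squares), 1 panel per batch. The epithelial median in p4 is -1.0 in MZoep and 0.00 in wild type, and the maternal medians of p2 and p4 have opposite signs in the 2 genotypes. The MZoep means of p2 and p3 include a few cells of very high keratin level.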

How the data were processed

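Single zebrafish cells were sequenced by full-length SMART-seq2 without molecular identifiers, per the labels' protocols. The deposited FPKM values were made by the authors with Bowtie2, RSEM and GRCz10, per the submitters' processing notes; their versions are not stated. FPKM sets each cell to its own total, so a few very high features can lower all others, and it keeps no counts, so no count model was used. A table of molecule counts from other libraries was not used. Cells with fewer than 1500 genes at FPKM 1 were left out, no doublet caller and no clustering was run, and symbols are printed in lower case. Relative depth was read from the size of the smallest step above 0.

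Batch means were compared as log2 ratios with a pseudocount of 1 FPKM, without tests. Shares have exact Clopper-Pearson intervals at 95%, and where 0 cells reached FPKM 1 or a set level the limit given is 3 counts of the total. Genes named were, per list, the 8 with the largest gap between batches and the 3 with the smallest among means of at least 10 FPKM, and per batch the 5 highest and 5 lowest ratios of all tested genes, with tdgf1 and actb1; not every gene of the last kind is described. Other genes named as examples (sox32, sox2, her5, chrd, ldha, pfkfb3, phlda3, mdm2, hsp70l) were chosen after values were seen. The members and gene lists were chosen with earlier results of these data known. The calculations were tested on simulated data and run in Python 3.11.15 with numpy 2.4.6, pandas 2.3.3, scipy 1.17.1 and matplotlib 3.10.9. No sequences are printed, since no sequence source was used here.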

Additional observations from a re-analysis of the deposited data

Results flagged for a closer look

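With 4 batches per value, 63 sets of 4 batch values were examined for 1 batch lying far from the rest. In all 4 were found, where chance gives about 1 in 20, so the number found is close to that rate. Many sets were single genes picked for a large gap between these same batches, so the rate is a rough guide only. The 4 are described below without a claim that any departs from chance. The endoderm list median of p4, -1.56, lay apart from the other batches, as did the germ cell list median of p2, 0.82. With 5 genes the endoderm median is the ratio of mixl1, so these are not separate, and it was -0.39 with all listed genes. From means of log2 values the germ cell median of p2 was 0.37. The mean of aplnrb in p4, 0.276 FPKM, and that of mixl1 in p4, 1.70 FPKM, lay below the narrow range of the other 3 batches.

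Among 54 pairs of a list and a batch, those with medians of at least 0.25 on the log2 scale in opposite directions in MZoep and wild type were picked out, each batch being set against the mean of the other 2. In p2 the maternal median was 0.30 in MZoep and -0.35 in wild type, and the endoderm median 0.67 and -0.90. The apoptotic and p53 median of p2 was 0.36 in MZoep and -0.63 in wild type, and the mitochondrial median 0.43 and -0.62. The hypoxia-inducible median was 0.56 in MZoep and -0.44 in wild type for p2, and -0.50 in MZoep and 0.52 in wild type for p4. These differences were not tested.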

How the results depend on the processing

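No paired analysis was possible because the results come from no test and well numbers do not pair cells of different batches. Over 15 alternatives the epithelial median of p4 ranged from -1.21 to -0.40, that of p3 from 0.11 to 0.53, the maternal median of p2 from 0.15 to 0.55 and the margin median of p4 from -0.81 to -0.08, each with 1 sign throughout; the epithelial medians of p1 and p2 kept theirs in 9 and 12. Counts of genes at least 2-fold higher and lower depended on the setting. With every cell above 0 kept, they were 268 and 269 in p1, 374 and 123 in p2 and 265 lower in p3, and the early zygotic median of p3 was -0.10. With a pseudocount of 0.1 FPKM p1 had 320 lower, p2 had 295 and 60, p3 had 91 and 161, and p4 had 115 and 601, with a margin median of -0.81 in p4. With 10 FPKM p1 had 2 and 6, p2 had 5 and 0, p3 had 6 and 4, and p4 had 1 and 16, with a margin median of -0.076 and 6 epithelial genes lower in p4. Without a filter they were 163 and 315, 335 and 85, 139 and 162, and 319 and 832 in p1 to p4; with a mean of at least 20 FPKM, 7 and 28, 33 and 8, 10 and 15, and 7 and 50. Leaving out the 10 highest features gave 95 and 51 in p2. Centring on the median of all genes gave 103 lower in p1, 69 and 82 in p2, 122 and 240 in p4, and an early zygotic median of -0.054 in p2. Means of log2 values gave 16 higher in p1, 15 lower in p3, 19 and 235 in p4, 4 epithelial genes lower in p4 and an early zygotic median of -0.40 in p1. Without the highest cell of each gene and batch they were 241 and 19 in p2 and 34 and 674 in p4. There nat8l and si:dkey-78o7.3 turned to -0.054 and -0.47 in p4. At relative depths of 0.6 to 1.4 they were 270 lower in p1 and 153 and 678 in p4, and si:dkey-15h8.8, nat8l and si:dkey-78o7.3 turned to -0.24, -0.65 and -0.33 in p4. With p2 left out of the other batches, 96 genes were higher in p1, 163 in p3 and 110 in p4; with p3 left out, 331 in p2. Without the 12 cells of highest keratin level, an alternative chosen after seeing the data, 5 epithelial genes were lower in p4. The cause was not tested. Depth limits low genes most, and p4 has 25 cells.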

Other observations

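Hypoxia-inducible genes, a list made after values were seen, were highest in p2 MZoep cells, with medians of -0.34, 0.54, -0.16 and -0.40 in p1 to p4 over 24 measured genes. The lactate dehydrogenase gene ldha averaged 10.1 FPKM in p2, against 2.61, 3.71 and 0.785 FPKM in p1, p3 and p4 (log2 ratio 1.72). The glycolysis regulator gene pfkfb3 averaged 3.23 FPKM in p2, against 0.0439, 0.0615 and 0.012 FPKM (log2 ratio 2.03). Over the 80 p2 cells egln3 ranked with ankrd37 (Spearman's rho 0.70) and ddit4 (0.56), less with ndrg1b (0.30) and ndrg1a (0.23), and not with pfkfb4a (-0.06) or with the number of genes detected (0.01). Cells of 1 batch share their preparation, so these values are descriptions.

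Genes of apoptosis and the p53 response were lowest in p4, with 4 of 13 measured genes at least 2-fold lower there, against 4.86% of all measured genes. The p53 target gene phlda3 averaged 0.0964 FPKM in p4, against 13.2, 8.83 and 2.82 FPKM in p1, p2 and p3 (log2 ratio -3.08). It was not among the genes compared, since fewer than 20% of the cells of each batch reached FPKM 1. The means of phlda3 thus rest on a minority of cells. Whether p4, the batch with the fewest cells, lacked such cells by counting error alone was not tested. The p53 ubiquitin ligase gene mdm2 averaged 2.81 FPKM in p4, against 16.8, 20.1 and 10.8 FPKM (log2 ratio -2.15). In p3 cells hsp70.3 ranked with hsp70l (Spearman's rho 0.82) and hsp90aa1.2 (0.63) over 61 cells, and with the number of genes detected (0.44).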
